A study of Mus musculus with 30 samples.

Results

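Igh joining in bone marrow pro-B cells with both CTCF-binding elements of IGCR1 mutated (CBE12mut) was compared with that in wild-type (WT) pro-B cells. The libraries were those titled CBE12mut_BM and WT_BM, 3 of each, which are 6 of the 30 libraries of the series and carry the same run name in their reads. All 6 came from 129SV mice, from cells sorted as B220+ IgM- CD43+. The CBE12mut mice carry the genotype label CBE1&2-/-, and the WT mice carry no listed change. Ages and the number of mice per library are not given in the sources used here, so the p-values measure the spread between libraries. Permutation p-values use these 6 libraries, and limma p-values use the spread of all 18 bone marrow libraries of 6 genotypes unless stated otherwise. Each library was genomic DNA amplified outward from a bait primer at JH4 (HTGTS-V(D)J-seq), and each deposited row is 1 read with the position joined to JH4. A level is the number of junctions per 100000 junctions of the library.

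Heavy-chain genes are assembled in pro-B cells by the RAG endonuclease, which cuts at recombination signal sequences made of a heptamer, a spacer and a nonamer. A D segment first joins a JH segment, and a V segment then joins the DJH product. IGCR1 lies between the D and V segments, and its 2 CTCF sites, CBE1 and CBE2, are known to block RAG that scans the chromatin from the DJH centre toward the V segments. Known for use in such scanning are the V segments nearest to D, Ighv5-2 (also called VH81X) above all.

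The segments on which the comparison turns are shown with their signals, because they lie on either side of this interval. The letters run 5′ to 3′ along the coding (minus) strand of mm9, from 15 bases of coding end through the heptamer and the nonamer, both in capitals. Because the alignment target combines Igh of the 129 strain with mm9, the mm9 letters below were found by matching the joined reads, at 98% to 100% identity over 478 to 507 bases.
Ighd4-1, chr12:114668711-114668753: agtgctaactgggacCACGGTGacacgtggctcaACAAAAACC
Ighd1-1, chr12:114720353-114720395: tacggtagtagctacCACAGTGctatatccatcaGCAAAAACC
Ighv5-1, chr12:114811099-114811152: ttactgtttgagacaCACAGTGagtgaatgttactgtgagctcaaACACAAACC
Ighv5-2, chr12:114816676-114816729: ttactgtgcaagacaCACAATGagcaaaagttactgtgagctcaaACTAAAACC
Ighv2-2, chr12:114826439-114826492: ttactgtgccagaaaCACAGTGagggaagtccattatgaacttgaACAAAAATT
Ighv5-4, chr12:114835618-114835671: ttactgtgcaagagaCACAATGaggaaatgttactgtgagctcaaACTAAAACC
Ighd4-1 (DQ52) is the D segment nearest to JH, and Ighd1-1 (DFL16.1) lies at the V-side end of the main D group. Ighv5-1, a pseudogene, is the first V segment from the D side, followed by Ighv5-2, Ighv2-2 and Ighv5-4. The consensus heptamer CACAGTG is met in full by Ighd1-1, Ighv5-1 and Ighv2-2, and Ighv5-2 and Ighv5-4 share the heptamer CACAATG and the nonamer ACTAAAACC. A further D in the interval between Ighd1-1 and Ighv5-1 matched mm9 next to Ighd3-1 at only 92.9% identity and is called the Ighd3-1-like D.

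The WT libraries held 79560, 57970 and 89905 junctions, and the CBE12mut libraries held 74102, 70611 and 97033. V and D joins together made up 96.6% to 97.2% of WT junctions and 97.5% to 97.9% of CBE12mut junctions. No junction of the 469181 lay in the Igk region, where joining follows later in B cell development; a count of 0 allows up to 0.639 per 100000, counting error only. Distinct junctions, which count reads that share junction, bait end and read length once, were 60.7% to 69.4% of WT rows and 43.5% to 51.7% of CBE12mut rows. The difference lay in Ighv5-2 rows, with 57.2% to 68.3% distinct in WT and 33.1% to 40.5% in CBE12mut, whereas the shares overlapped among all other rows. Rows that repeat the exact sequence of another read were only 11.9% to 15.1% in WT and 9.26% to 19.3% in CBE12mut. The distinct count thus also merges reads that differ in sequence, and how many of these were separate joins was not tested. Results are also given by distinct junctions where the value moves, as an alternative and not as a correction.

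With both elements mutated, completed V joins replaced D joins as the main product. V joins were 35983, 34511 and 29573 per 100000 in the WT libraries and 85903, 85594 and 82688 in the CBE12mut libraries, and D joins went from 61264, 62189 and 67031 to 12039, 11942 and 14934. The groups did not overlap in either. Of 9 zones of the locus and genome, 5 were called (55.6%), the part of the V region nearest to D higher (11.1%), and Ighd1-1, the remaining D segments and the middle and farthest parts of the V region lower (44.4%). The V share of V plus D joins was thus 34.4 ± 3.37% (SD, n = 3) in WT and 86.7 ± 1.75% in CBE12mut (exact two-sided permutation p = 0.1, the smallest that 3 against 3 libraries allow), and 35.2% and 80.9% by distinct junctions. Of the 17 single values tested in this way, 13 had groups that did not overlap (76.5%), each with an exact permutation p = 0.1 (Benjamini-Hochberg adjusted 0.131 over the 17).

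Most V joins of CBE12mut cells used the first 3 V segments, with 15.6, 18.5 and 17.9% of V joins in WT and 91, 89.6 and 89.9% in CBE12mut. Ighv5-2 held 3526, 3923 and 3315 junctions per 100000 in WT replicates 1 to 3 and 65392, 62898 and 61408 in CBE12mut replicates 1 to 3, a rise of 17.6 times (log2 change 4.16, SE 0.09, limma adjusted p = 1.21e-36, n = 3 per group). Every CBE12mut library lay far above every WT library. By distinct junctions the log2 change was 3.86. The Ighv5-1 pseudogene rose more steeply from a lower level, from 152, 207 and 146 to 5965, 6401 and 6322, or 37 times (log2 change 5.24, SE 0.21, limma adjusted p = 1.13e-25). Ighv2-2 rose 3.43 times, from 1933, 2268 and 1839 to 6784, 7361 and 6594 (log2 change 1.79, SE 0.11, limma adjusted p = 2.96e-19). These 3 segments made up 5.77 ± 0.566% of all junctions in WT and 76.4 ± 1.92% in CBE12mut. Because levels are shares of a library, this rise by itself lowers the level of everything else.

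**Figure D1:**
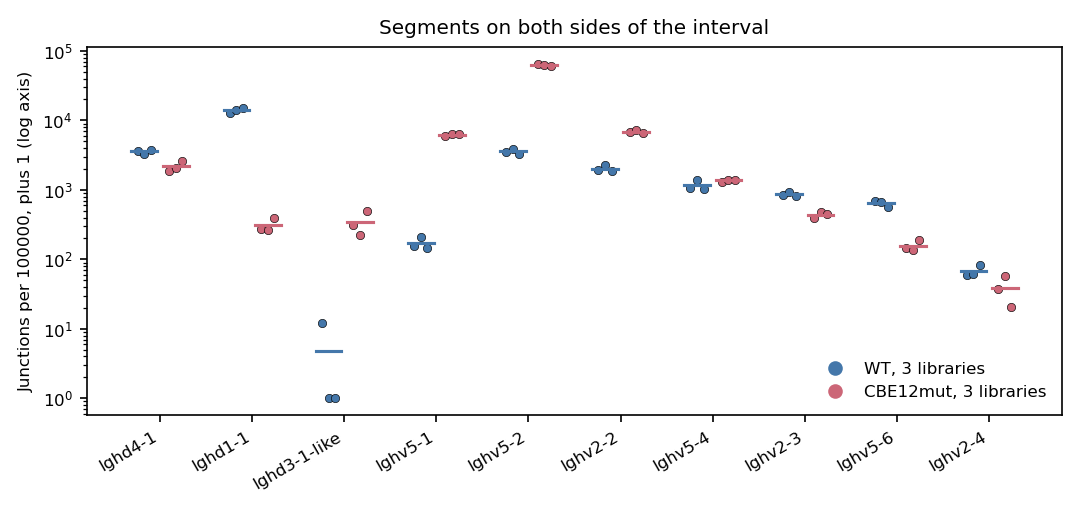
Junctions per 100000 plus 1 (log axis) at D and V segments on both sides of the interval, in order along the locus; points are the 3 WT (blue) and 3 CBE12mut (red) libraries and bars their means. Ighv5-1, Ighv5-2 and Ighv2-2 lie higher in every CBE12mut library, Ighv5-4 overlaps between the groups, and Ighd1-1 lies lower in every CBE12mut library.

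The 3 segments kept different proportions in the 2 groups. WT cells held 23.2, 18.9 and 22.7 Ighv5-2 joins per Ighv5-1 join and CBE12mut cells 11, 9.83 and 9.71. Toward the farther side, Ighv5-2 joins per Ighv2-2 join were 1.82, 1.73 and 1.8 in WT and 9.64, 8.54 and 9.31 in CBE12mut, and Ighv2-2 joins per Ighv5-4 join were 1.84, 1.63 and 1.77 and 5.18, 5.34 and 4.71. The groups did not overlap in any of these ratios, which were not tested. Ighv5-2 alone took 9.8, 11.4 and 11.2% of V joins in WT and 76.1, 73.5 and 74.3% in CBE12mut, with mean 10.1% and 63.1% by distinct junctions. The effective number of V segments, the inverse of the summed squared shares, was 44.1, 36 and 37.6 in WT and 1.69, 1.81 and 1.77 in CBE12mut (exact permutation p = 0.1, n = 3 per group). V segments nevertheless remained in use across the locus, and 142 to 144 of the 151 V segments held at least 1 join in each CBE12mut library, against 149 to 151 in WT.

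The excess ended within a few segments of the D side. Ighv5-4, the next V segment, held 1048, 1389 and 1039 in WT and 1310.4, 1378 and 1401 in CBE12mut, and the groups overlapped (log2 change 0.27, SE 0.14, limma adjusted p = 0.0705). It passed the threshold by distinct junctions (log2 change 0.70, adjusted p = 1.11e-05) and without WT replicate 2 (0.39, adjusted p = 0.0196). Ighv2-3, the fifth, fell from 833, 925 and 824 to 387, 477 and 448 (log2 change -0.97, SE 0.18, limma adjusted p = 6.11e-06), but lay above the typical segment under median-of-ratios scaling (log2 change 0.98). Ighv5-6, the sixth, fell from 689, 669 and 562 to 146, 135 and 189 (log2 change -2.01, SE 0.25, limma adjusted p = 4.35e-09), close to the median of all segments. Ighv2-4, the seventh, held 59.1, 60.4 and 81.2 and 36.4, 56.6 and 19.6 (log2 change -1.02, adjusted p = 0.0196), which did not pass with WT replicate 3 left out (adjusted p = 0.0784), with CBE12mut replicate 3 left out (0.217) or by distinct junctions (0.225), with the direction turned under median-of-ratios scaling (log2 change 0.97). Ighv5-12, the ninth, fell by 2.30 on the log2 scale (adjusted p = 1.31e-09). Under median-of-ratios scaling neither Ighv5-6 nor Ighv5-12 passed the threshold (log2 changes -0.06 and -0.37).

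Across the locus, 152 of the 168 segments tested were called (90.5%), 146 lower relative to all junctions (86.9%) and 6 higher (3.57%), with a median log2 change of -2.04. Median-of-ratios scaling, which sets the typical segment near 0, moved that median to -0.08 and called 16 segments higher and 5 lower. By distinct junctions 162 segments were tested, of which 11 were called higher (7 D and 4 V) and 136 lower, with a median of -1.58. In 149 of the 168 the groups did not overlap (88.7%). The 6 that rose were Ighv5-1, Ighv5-2, Ighv2-2, the Ighd3-1-like D and 2 minor D segments described below. Among the first 10 V segments from the D side, 3 rose, 6 fell and Ighv5-4 was not called (median -0.99). Of the other 141 V segments 133 passed the filter on low counts, of which none rose, 127 fell and 6 were not called, with log2 changes of -4.66 to -0.96 and a median of -2.15. The same 133, scaled by median of ratios, had none called higher, 1 called lower, and their median stood at -0.19.

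By family, most V segments fell relative to all junctions, a direction that median-of-ratios scaling turned in the median of the Ighv5 family (0.29) and of the pseudogenes (0.26). Of 62 tested Ighv1 segments, the large family of the middle and far part of the locus, 57 fell (median -2.19). All 8 tested Ighv8 segments fell (median -2.48), as did 36 of 37 in the smaller families together (median -2.04). The 2 families that hold the risers, Ighv5 and Ighv2, fell in 16 of 19 and 16 of 17 tested members (medians -1.68 and -2.41). Of 5 V segments annotated as pseudogenes 4 were tested, and 3 of these fell while Ighv5-1 rose. These counts are near the background of 86.9%.

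**Figure D2:**
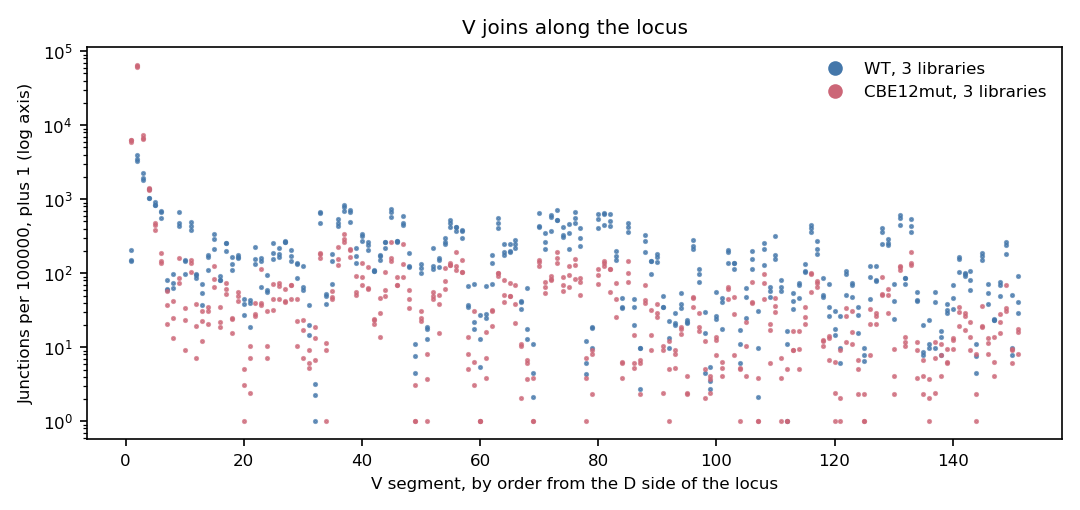
Junctions per 100000 plus 1 (log axis) of the 151 V segments in order from the D side (axis: rank); each point is 1 of 3 WT (blue) or 3 CBE12mut (red) libraries. The first 3 segments lie higher in CBE12mut and nearly all later segments lie lower, over the whole length of the V region.

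Segments beyond the nearest 10 that are well used in WT show the size of this fall. Ighv2-9 went from 838, 690.0 and 791 to 285, 339.9 and 266, or 2.6 times lower. Ighv1-2 went from 709, 528 and 528 to 138, 194 and 162, 3.58 times lower. Ighv1-67, in the part of the V region farthest from D, went from 559, 607 and 454 to 120.1, 109 and 124, 4.59 times lower. The groups did not overlap at any of these 3, but under median-of-ratios scaling Ighv2-9 and Ighv1-2 changed direction (log2 changes 0.58 and 0.13, neither called) and Ighv1-67 was not called (-0.22). Among the 10 V segments beyond the nearest 10 with the highest WT level, all 10 fell, with log2 changes of -2.52 (Ighv15-2) to -1.40 (Ighv2-9). Among V segments with a mean of at least 20 per 100000 in a group and no overlap, the largest falls were at little used segments. Of these, the V segment at 116652452, closest to Ighv8-5, held 64, 37 and 51 junctions in WT against 0, 2 and 6 in CBE12mut (log2 change -4.66, adjusted p = 4.05e-06). Ighv2-6 held 35, 15 and 34 junctions in WT against 3, 0 and 2 in CBE12mut, Ighv2-7 held 30, 30 and 43 against 6, 0 and 10, and Ighv8-8 held 24, 8 and 15 against 4, 1 and 0. Ighv2-6, Ighv2-7 and Ighv8-8 did not pass the threshold under median-of-ratios scaling, and the V segment at 116652452 did (adjusted p = 0.0215).

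To see the make-up of the remaining V joins apart from the 3 risers, V joins outside Ighv5-1, Ighv5-2 and Ighv2-2 were compared among themselves. They went from 30372, 28113 and 24274 to 7762, 8933 and 8365 per 100000, but per 100 D joins they were 49.6, 45.2 and 36.2 in WT and 64.5, 74.8 and 56 in CBE12mut, and with Ighd1-1 left out of the D joins 62.6, 58.6 and 46.8 and 66, 76.5 and 57.5, where the groups overlapped. Within them 6 of 140 segments were called (4.29%), 2 higher (1.43%) and 4 lower (2.86%), with a median log2 change of -0.40 over the 140. Under median-of-ratios scaling, which sets the typical segment near 0, 2 were called in all. Ighv5-4 made up 3.45, 4.94 and 4.28% of these joins in WT and 16.9, 15.4 and 16.7% in CBE12mut (log2 change 1.97, SE 0.14, adjusted p = 3.57e-20). Ighv2-3 made up 2.74, 3.29 and 3.4% and 4.99, 5.34 and 5.36% (log2 change 0.75, adjusted p = 0.00038). Both risers are the next V segments after the first 3. The 4 that were lower lie in the middle part of the V region and included Ighv15-2 (log2 change -0.83, adjusted p = 0.0209, beside the median of -0.40). None of the 4 was called without CBE12mut replicate 1 or without CBE12mut replicate 2. The part of the V region nearest to D held 42.9, 47.3 and 49.2% of these joins in WT and 59.2, 59.7 and 56.8% in CBE12mut, and the farthest part 15.4, 15.3 and 14.6% and 11.2, 10.3 and 12.5%. Ighv5-4 and Ighv2-3 lie in the nearest part, and their rise by itself lowers the share of the other parts. By segment, the median log2 change was -0.11 in the nearest part, -0.51 in the middle and -0.50 in the farthest. The shares of the parts without these 2 segments were not compared.

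D joins fell relative to all junctions at Ighd4-1, the Ighd2 family and most of all at Ighd1-1, the last main D before IGCR1. Ighd1-1 fell 45.1 times, from 12770.2, 14252 and 15117 junctions per 100000 in WT to 277, 268 and 391 in CBE12mut (log2 change -5.48, SE 0.19, limma adjusted p = 4.9e-28). The remaining main D zone fell from 49055, 48468 and 52495 to 11620.5, 11629.9 and 14389.9 (log2 change -2.0, SE 0.13, adjusted p = 1.15e-09). Ighd4-1, at the opposite end of the D group, fell less, from 3569.6, 3336 and 3805 to 1864, 2058 and 2627 (log2 change -0.71, SE 0.12, limma adjusted p = 1.19e-06), and lay above the typical segment under median-of-ratios scaling (log2 change 1.24). All 8 Ighd2 family members fell relative to all junctions, with a median log2 change of -2.27, whereas under median-of-ratios scaling 2 were called lower and 2 lay above 0. The D segments are printed because they are read again inside V joins below, as the majority letters of the joined reads, on the coding strand.
Ighd4-1: ctaactgggac
Ighd2-3: tctatgatggttactac
D at 114714725, closest to Ighd2-8: tctactatggtaactac
Ighd1-1: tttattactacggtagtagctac
Ighd3-1-like D: ggcacagctcgggctac
Positions such as 114714725 are on chromosome 12 of the alignment target and cannot be compared with mm9. They are used for D segments of the 129 strain that no annotated segment matched closely enough to name, and several of these are near-identical copies, so the deposited alignment decided which copy received a read.

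Within D joins alone, 20 of the 25 D segments tested changed (80%), 15 higher (60%) and 5 lower (20%). These are shares of all D joins, so the fall of Ighd1-1 by itself raises the share of every other D. The D at 114690286, among the 15 higher (log2 change 0.25, limma adjusted p = 0.0166), turned below 0 under median-of-ratios scaling. Ighd1-1 was the most used D in WT, with 20.8, 22.9 and 22.6% of D joins, and held 2.3, 2.24 and 2.62% in CBE12mut (log2 change -3.19, SE 0.16, adjusted p = 8.99e-26). Ighd4-1 became the most used, from 5.62 ± 0.236% to 16.8 ± 1.13% (SD, n = 3 per group; limma log2 change 1.58, adjusted p = 2.9e-27). Within the Ighd2 family the members went both ways. The D at 114714725 rose from 8.69, 9.13 and 8.71% to 15.2, 16.8 and 15.2% and the D at 114723458, closest to Ighd2-4, from 5.22, 5.5 and 5.36% to 8.06, 8.1 and 8.55% (adjusted p = 2.26e-15 and 3.8e-08). Ighd2-3 fell from 9.47, 10.5 and 10.2% to 7.62, 7.63 and 5.93%, and the D at 114705399 fell from 10.03, 9.5 and 10.01% to 6.87, 6.3 and 6.68% (adjusted p = 6.78e-07 and 3.8e-06). The D at 114719358, closest to Ighd1-1 at only 76.9% identity, went from 6.03, 7.12 and 7.23% to 5.83, 4.19 and 4.53% (log2 change -0.51, adjusted p = 0.00117). Thus neighbours along the D group differed in direction, and the family as a whole held 62.3 ± 1.32% of D joins in WT and 66.8 ± 2.14% in CBE12mut. That total includes Ighd1-1, whose mean share fell from 22.1% to 2.38%. The family values therefore do not show a rise against the remaining D segments. The effective number of D segments was 9.57, 9.0 and 9.14 and 10.9, 9.91 and 10.3 (exact permutation p = 0.1), and without Ighd1-1 it was 10.3, 10.2 and 10.2 and 10.5, 9.52 and 9.81, where the groups overlapped.

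**Figure D3:**
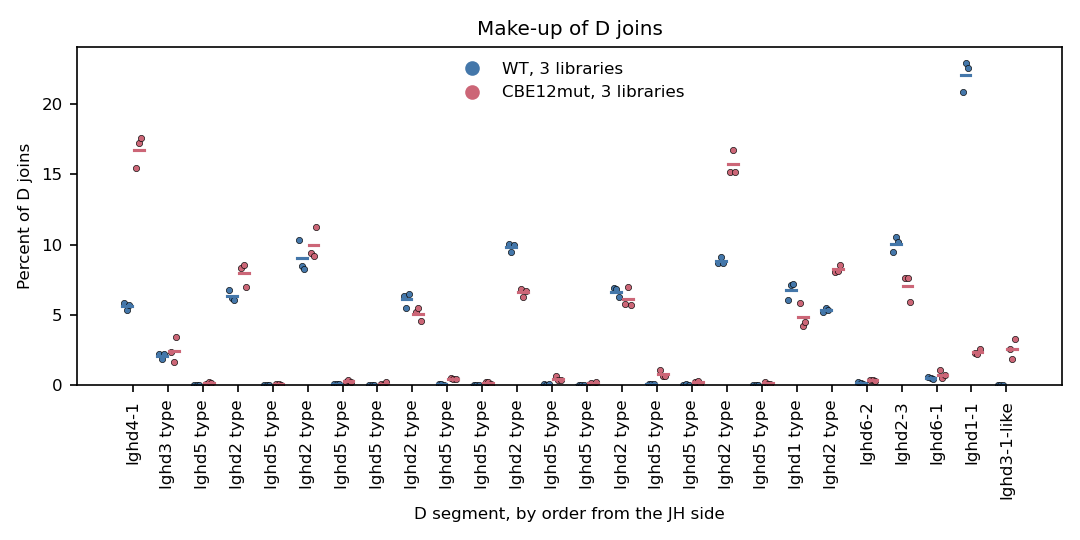
Percent of D joins at each of 26 D segments in order from the JH side; points are the 3 WT (blue) and 3 CBE12mut (red) libraries and bars their means, and segments without a name carry the family of their closest match. Ighd4-1 and the Ighd3-1-like D lie higher in CBE12mut, Ighd1-1 lies lower, and the Ighd2 members between them go both ways.

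Among the rarely used D segments, those with an Ighd5 closest match (Ighd5 type) were higher in CBE12mut in sum, whereas Ighd6-1 and Ighd6-2 were not. The type follows the closest annotated match only. The Ighd5 type includes the D at 114698902, 114703898, 114708573 and 114713223, which are 29 bases long like Ighd6-1 and close to it in sequence. These sums therefore do not separate the 2 types by sequence. The Ighd5 type together held 211, 144 and 230 junctions in WT and 314, 241 and 393 in CBE12mut, or 265, 248 and 256 and 424, 341 and 405 per 100000, and the groups did not overlap. Ighd6-1 went from 366, 311 and 313 to 128, 59.5 and 106 per 100000, without overlap, and Ighd6-2 from 122, 109 and 44.5 to 43.2, 45.3 and 46.4, with overlap. Both types together held 753, 668 and 613 in WT and 595, 446 and 558 in CBE12mut, lower in every CBE12mut library. Of the 12 Ighd5 and Ighd6 segments that passed the filter, of 13 in all, 2 rose, 1 (Ighd6-1) fell and 9 were not called relative to all junctions, against a background of 3.57% higher and 86.9% lower. Those that rose were the D at 114713223, from 35.2, 50.03 and 75.6 to 128, 79.3 and 97.9 (log2 change 0.94, adjusted p = 0.0267), and the D at 114689024 (13, 2 and 1 junctions in WT and 8, 18 and 25 in CBE12mut, adjusted p = 0.0301), where the groups overlapped per 100000. By distinct junctions 6 of the 12 rose, and under median-of-ratios scaling, where all 12 lay above 0, Ighd6-1 included, 9 were called higher. Neither call held without every library: the first was lost without WT replicate 1 (adjusted p = 0.159), WT replicate 2 (0.0561) or CBE12mut replicate 1 (0.0996), and the second without WT replicate 2 (0.0661), WT replicate 3 (0.231), CBE12mut replicate 2 (0.0634) or CBE12mut replicate 3 (0.0872).

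Between Ighd1-1 and Ighv5-1, an interval of 96 kb on the target that holds IGCR1, the 2 groups joined at different places. The zone as a whole held 307, 486 and 488 junctions per 100000 in WT and 572, 542 and 696 in CBE12mut (limma adjusted p = 0.251 with the spread of all 18 bone marrow libraries, and 0.0149 in a fit of these 6 alone). Within 5 kb of Ighd1-1 there were 232, 280 and 430 junctions in the WT libraries and 17, 17 and 4 in the CBE12mut libraries, which is 95.1, 99.3 and 97.9% and 4.01, 4.44 and 0.593% of the interval joins (exact permutation p = 0.1, n = 3 per group). The Ighd3-1-like D, 49.5 kb from Ighd1-1, held 9, 0 and 0 junctions in WT and 229, 158 and 477 in CBE12mut (limma log2 change 7.55, SE 0.98, adjusted p = 7.66e-09). The remaining interval joins were 3, 2 and 9 in WT and 178, 208 and 194 in CBE12mut.

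Apart from that D, 9 sites in the interval gathered at least 50 joins over the 18 bone marrow libraries, none at an annotated segment. The 5 nearest to Ighd1-1, at 1.01 to 3.64 kb, were used mostly in WT, and the 4 at 21.1 to 50.3 kb were used mostly in CBE12mut. The site at 1.01 kb held 97, 127 and 209 junctions in WT and 5, 8 and 4 in CBE12mut, 25.8 times lower per 100000. The site at 3.15 kb held 54, 70 and 77 junctions in WT and none in CBE12mut, so that it was at least 73.7 times lower against a floor of 3 counts over the group. In the other direction, the site at 21.1 kb held none in WT and 43, 53 and 55 in CBE12mut, at least 48 times higher. The site at 50.3 kb, just beyond the Ighd3-1-like D, held none in WT and 32, 52 and 47 in CBE12mut, at least 41.8 times higher. Thus all 5 sites near Ighd1-1 were lower and all 4 far sites higher per 100000 in CBE12mut. Ighd1-1 itself also fell, from a mean of 14046.5 to 311.6 per 100000, and a change of the near sites relative to Ighd1-1 joins was not tested. The sites were defined from joins that include these 6 libraries, so their values are a description.

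**Figure D4:**
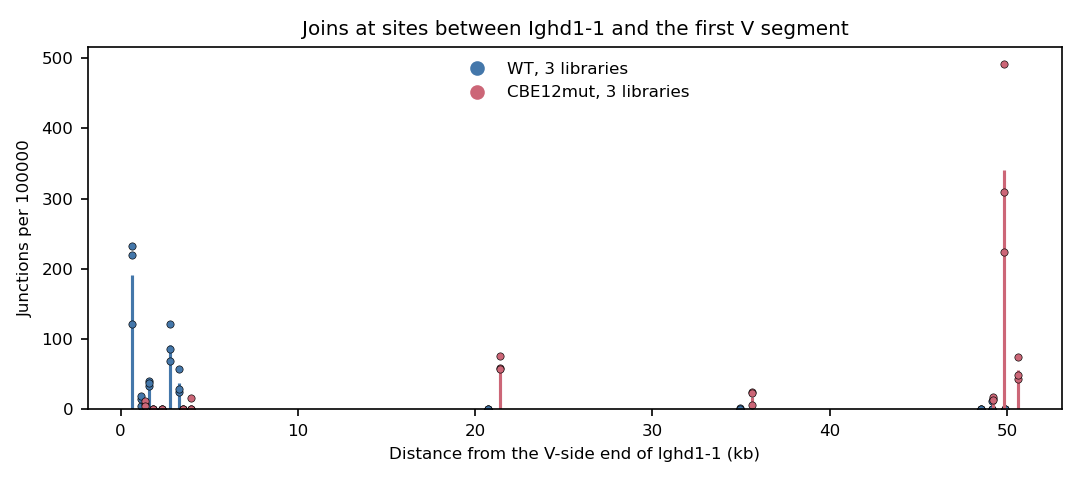
Junctions per 100000 at 9 sites and the Ighd3-1-like D, by distance from the V-side end of Ighd1-1 in kb; points are the 3 WT (blue) and 3 CBE12mut (red) libraries, drawn slightly to the left and right of the site, and lines their means. Most WT joins lie at 1.01 to 3.64 kb and most CBE12mut joins at 21.1 to 50.3 kb.

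Sequence next to these sites is shown because RAG cuts at a heptamer. For 4 of the 9, the letters give the 7 bases that start with CAC within 1 base of the most frequent junction, in capitals, after the 15 bases before them, on the minus strand of mm9, where the joined reads matched at 99.5% to 100% identity.
1.01 kb, chr12:114721404-114721425: ggcaatgcgactgggCACACTG
1.96 kb, chr12:114722360-114722381: agtgccatcagacacCACAGTG
21.1 kb, chr12:114741472-114741493: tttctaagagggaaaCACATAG
50.3 kb, chr12:114764305-114764326: acaagtgggcgtacaCACACTC
The 7 bases after the break at 1.96 kb spell the consensus heptamer. So do those at the site at 35.3 kb, not printed, which held 1 junction in WT and 39 in CBE12mut. At the site at 1.48 kb, also not printed, they read CACTACC, with 3 of 7 bases as in the consensus. The letters CAC, in the orientation of a D signal on the minus strand, started within 1 base of the most frequent junction at 7 of the 9 sites and within 2 bases at 8, and 4.52% and 7.16% of all positions of the interval in mm9 meet these criteria. The heptamer of the mm9 sequence next to Ighd3-1 is CACTGTA, and the nonamer is ACCAAAACT. A match is a description of the letters and not a measured RAG site.

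The D segment inside V joins records which DJH product the V segment joined. A run of at least 8 bases that matched 1 D class was read in 70.2% to 70.5% of WT V joins and 65.1% to 65.9% of CBE12mut V joins. Inserts over 30 bases between V and JH4 are not in the files, which limits what can be read of long D segments. Inside Ighv5-2 joins, Ighd1-1 made up 9.67, 8.49 and 10.6% of the D runs in WT and 2.7, 2.46 and 2.69% in CBE12mut. Inside joins of V segments beyond the first 3 it made up 21.2, 21.4 and 21.7% and 3.97, 5.49 and 3.83%. The groups did not overlap at either, and in WT the Ighd1-1 share was lower in Ighv5-2 joins than in the joins of farther V segments in all 3 libraries. Over all V joins the share was 19.6 ± 0.33% and 2.8 ± 0.0315% (exact permutation p = 0.1, n = 3 per group).

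The Ighd4-1 share of D runs was higher in every CBE12mut library in joins of Ighv2-2, of Ighv5-1 and of V segments beyond the first 3, but the groups overlapped in Ighv5-2 joins. In Ighv5-2 joins Ighd4-1 made up 3.21, 1.87 and 3.42% of D runs in WT and 3.36, 2.42 and 2.64% in CBE12mut. In Ighv2-2 joins it made up 3.07, 3.55 and 0.548% and 5.39, 6.15 and 6.68%, without overlap. In Ighv5-1 joins it was read in none of the 71 to 94 D runs of each WT library and made up 5.18, 3.64 and 5.12% in CBE12mut. In joins of V segments beyond the first 3 it made up 2.74, 2.47 and 1.81% and 8.95, 7.83 and 8.72%, again without overlap. The share of Ighd4-1 among D joins in CBE12mut, 16.8%, was above its share inside each of these kinds of V join. Ighd4-1 is the shortest D with a gene name, and how many of its runs fell under 8 bases was not tested. Ighd2 family runs made up 64.6, 64.7 and 63.8% of D runs in joins of V segments beyond the first 3 in WT and 74.2, 71.9 and 73.8% in CBE12mut. In Ighv5-2 joins the Ighd2 family stood at 79.3, 83.3 and 74.9% and 82.6, 83.1 and 83%, where the groups overlapped. No test was run on these shares by V segment.

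**Figure D5:**
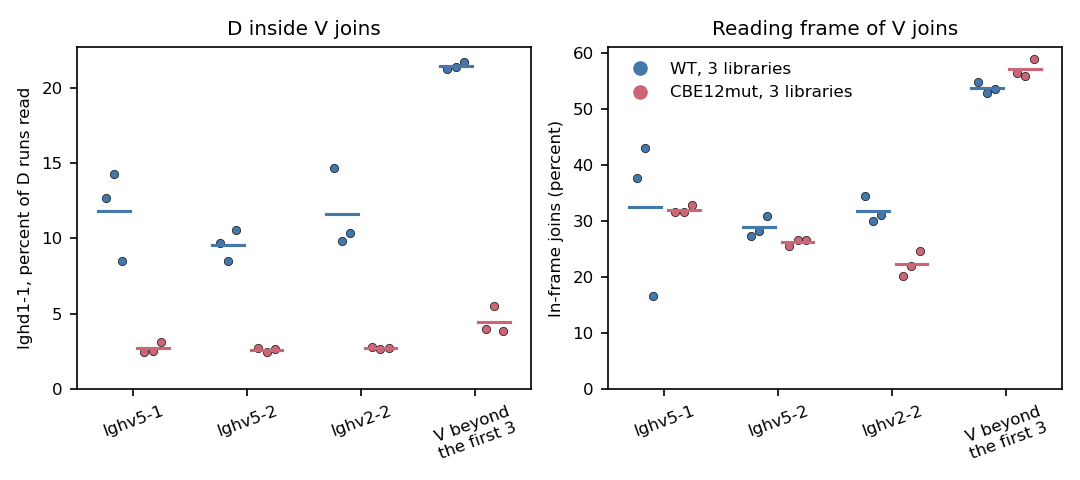
Left, Ighd1-1 as a percentage of the D runs read inside V joins; right, in-frame V joins in percent; by V segment or group, with 3 WT (blue) and 3 CBE12mut (red) libraries as points and their means as bars. The Ighd1-1 share lies lower in CBE12mut in every V class, and the in-frame values of the first 3 segments lie below those of the V segments beyond them as 1 group, in WT and in CBE12mut.

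The reading frame between the V cysteine codon and the JH4 tryptophan codon could be read for 119 of the 151 V segments. Over all V joins, 50.6, 48.1 and 49% were in frame in WT and 28.1, 29.5 and 30.03% in CBE12mut, and joins in frame without a stop codon were 42.9, 40.4 and 39.9% and 19.5, 21.1 and 21%. By segment, Ighv5-2 joins were in frame in 27.4, 28.3 and 31% of WT reads and 25.5, 26.7 and 26.6% of CBE12mut reads (exact permutation p = 0.1, n = 3 per group), although the groups overlapped by distinct junctions, and the difference of the means was 2.66 percentage points. The Ighv5-1 pseudogene stood at 37.7, 43 and 16.7% in WT, from only 93 to 114 reads, and at 31.7, 31.6 and 33% in CBE12mut. Ighv2-2 joins were in frame in 34.5, 30.1 and 31% and 20.2, 21.9 and 24.7%, lower in every CBE12mut library. Ighv5-4 joins were also lower in every CBE12mut library, at 39, 31.7 and 35.4% in WT and 27, 24.9 and 31% in CBE12mut. All V segments beyond the first 3 together, Ighv5-4 included, stood at 54.9, 52.9 and 53.6% in WT and 56.6, 55.9 and 59% in CBE12mut, higher in every CBE12mut library. The lower overall value in CBE12mut stood beside a larger part of joins at segments with a low in-frame share in both groups. Without Ighv5-2, V joins were in frame in 52 ± 1.28% and 38.4 ± 1.72% (exact permutation p = 0.1), a set that still holds Ighv5-1 and Ighv2-2.

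Insert lengths and end positions of V joins were compared next. The median insert between V and JH4, which holds the D and any added bases, was 17 bases in each of the 6 libraries (exact permutation p = 1). Inserts under 8 bases, too short for a D run to be read, made up 7.35, 7.75 and 7.49% of WT and 9.65, 8.71 and 9.26% of CBE12mut V joins, without overlap, but the groups overlapped within Ighv5-2 joins (9.15, 8.14 and 8.17% and 9.5, 8.43 and 8.97%). In joins of V segments beyond the first 3 the median insert was 18, 18 and 17 bases in WT and 16, 16 and 16 in CBE12mut, and inserts under 8 bases made up 6.97, 7.61 and 7.4% and 9.56, 10.5 and 9.8%, both without overlap. Inserts of 25 to 30 bases, next to the limit of the files, were 12.8, 11.6 and 11.6% and 9.89, 10.5 and 9.6%. Ighv5-2 joins fell on the most frequent base of that segment in 36.8, 38 and 36% of WT and 32.9, 33.4 and 33.7% of CBE12mut reads. V joins with overlapping ends, where bases are shared by both sides, were rare, at 0.0843, 0.136 and 0.102% in WT and 0.254, 0.29 and 0.404% in CBE12mut, without overlap between the groups. D joins with overlapping ends were 5.85, 6.37 and 6.27% and 5.81, 5.13 and 6.27% (exact permutation p = 0.2).

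Nearly all V and D joins had the deletional orientation in both groups. Inversional D joins were 68, 39 and 73 in WT and 55, 44 and 74 in CBE12mut, with similar numbers in both groups, and their share of D joins went from 0.14, 0.108 and 0.121% to 0.617, 0.522 and 0.511% (exact permutation p = 0.1, n = 3 per group). The inversional share of V joins was 0.52, 0.415 and 0.572% and 0.547, 0.619 and 0.718%, and the groups overlapped (exact permutation p = 0.2). Among Ighv5-2 joins the inversional share was 0.606, 0.044 and 0.604% in WT and 0.594, 0.657 and 0.792% in CBE12mut, and the groups overlapped there too.

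Junctions of JH4 with other JH segments were somewhat fewer in CBE12mut, at 1668, 2048 and 2092 per 100000 in WT and 1269.9, 1564 and 1475 in CBE12mut, without overlap but not past the threshold in the fit with all bone marrow libraries (limma log2 change -0.43, adjusted p = 0.251). By distinct junctions the groups overlapped, with means of 1942 and 1874. Per 100 D joins they were 2.72, 3.29 and 3.12 in WT and 10.5, 13.1 and 9.88 in CBE12mut (exact permutation p = 0.1, n = 3 per group). Of them, 93.8% to 99.2% had the orientation opposite to deletional joining. Junctions outside chromosome 12 were rare, with 45, 48 and 63 in WT and 78, 51 and 102 in CBE12mut, or 56.6, 82.8 and 70.1 and 105, 72.2 and 105 per 100000, and the groups overlapped (exact permutation p = 0.2).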

How the data were processed

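The samples were 6 HTGTS-V(D)J-seq libraries of sorted pro-B cell DNA, 3 WT and 3 CBE12mut. Per the labels, Bowtie2 (version not given in the sources used here) aligned the reads to mm9 combined with Igh of the 129 strain, and the libraries were made without enzyme blocking. The deposited tables hold 1 row per read with its junction position, orientation and positions in the read, with no normalization, and each such value was read as deposited. No deposited row is marked as a duplicate although reads repeat, and the longest insert between bait and prey in the files is 30 bases. Reads are not independent molecules, so intervals and floors cover counting error only.

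Rows were counted within 100 bp of each V or D segment. Segments were found from the coordinates at which joins gathered. They were named from the mm9 annotation by position in the mm9 part of the target, or by sequence match (BLAST 2.17.0) at 97% identity or more for V and 99% for D, with 2 V segments named by their neighbours in RefSeq. Levels are per 100000 rows of the library. Segments with at least 10 junctions in 3 libraries were tested with limma 3.58.1 (voom) in R 4.3.3 in a fit of all 18 bone marrow libraries of 6 genotypes, which share 1 estimate of the spread, with Benjamini-Hochberg adjustment over all tested segments and a threshold of 0.05. Zones were tested with limma on log2(junctions per 100000 + 1). D usage and V usage were tested the same way as segments, within D joins and within V joins outside the first 3 V segments. Single values were compared by exact two-sided permutation over the 20 relabelings. The segment test was run before use on simulated data, in which part of the segments changed, equally often up and down. Those data held no shift of most junctions to a few segments, so that run does not bear on such a shift. Same-group libraries differed beyond sampling noise (chi-square per degree of freedom 4.99 to 11.9). Same-numbered WT and CBE12mut libraries did not deviate together (correlations -0.09, 0.17 and -0.02), so the numbers were not used as pairs. Segments to name were listed by a rule: every D that passed the filter, the 10 V segments nearest to D, the 10 other V segments highest in WT, and, each way, up to 5 of the largest changes among called segments without overlap and with a mean of at least 20 per 100000 in a group, of segments and of V usage. The text names part of that list, chosen after their values were seen, and gives the others by counts and ranges. The interval sites were chosen after their joins were seen. The members and lists were chosen with earlier results of these data known. Signal sequences are those of mm9, and D sequences are the majority letters of the reads joined at each D.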

Additional observations from a re-analysis of the deposited data

How the results depend on the processing

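Of 142 alternative values of the single values, 141 kept their direction. The exception was the median insert length, equal in both groups, whose difference was -0.333 bases by distinct junctions. Many of the 142 could not change direction. The replicate block has the same mean difference as the main value, and leaving out 1 library cannot turn groups that do not overlap. Of 715 alternative values of named segments and zones, 642 kept direction and side of the threshold, 44 lost the call, 20 gained it and 9 changed direction. Segment calls numbered 139 to 151 with 1 library left out, 144 with the replicate block and 21 under median-of-ratios scaling, 16 higher and 5 lower, with 13 of the 152 calls kept. That scaling turned Ighv2-3 (0.98), Ighv2-4 (0.97), Ighv2-9 (0.58), Ighv1-2 (0.13) and Ighd4-1 (1.24) among segments, and the D at 114687612 (-0.16), 114690286 (-0.12) and 114695747 (-0.22) in D usage. The D at 114687612, not called, also turned without CBE12mut replicate 3 (log2 changes of -0.091 to 0.49 with 1 library left out). Zone calls rose from 5 to 9 with only the 6 libraries, which do not share the spread of the other genotypes. They stood at 8 with the replicate block, which in every limma fit was also run on these 6 libraries alone. D usage gave 18 to 24 calls with 1 library left out and 20 with the replicate block. V usage beyond the first 3 segments gave 14 calls by distinct junctions, 2 under median-of-ratios scaling, 6 with the replicate block and 2 to 8 with 1 library left out, with 2 left without CBE12mut replicate 1 or 2 and 3 left without WT replicate 1 or CBE12mut replicate 3. The replicate block, tested for single values by sign flips, could not go below p = 0.25 by an exact test. By distinct junctions the groups no longer overlapped for the inversional V share (means 0.538% and 0.966%) and for junctions outside chromosome 12 (96.2 and 149 per 100000), and overlapped for the in-frame share of Ighv5-2 joins (28.4% and 26.3%). The cause of these shifts was not tested. Depth limits the rare sites: a count of 0 over 1 group allows up to 1.32 per 100000 in WT and 1.24 in CBE12mut.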
